A study of Mus musculus with 32 samples.

Results

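Transcript isoform use was compared between the germ cells of young male mice at ages taken as before and after spermatocytes enter zygotene. Zygotene is the meiotic prophase stage at which homologous chromosomes begin to synapse. For every gene the share of each transcript was its percentage of the gene's summed TPM, the estimated level per transcript length scaled to the same total in every mouse. Members were the genes whose summed TPM averaged at least 3 in both age groups and in which at least 2 transcripts averaged at least 1 in either group. There were 7392 such genes among 85539 in the transcript table, of which 6899 were Ensembl genes and 493 were NONCODE long noncoding RNA genes. Within them 26011 transcripts reached 1 TPM in a group and were tested. None of the 214 piRNA precursors, which the table also lists, met the rule.

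The study followed the first wave of spermatogenesis, in which the first germ cells of the juvenile testis pass through meiosis almost in step. Its polyA RNA libraries came from testicular germ cells of C57BL/6J males, with 1 mouse per library and with no mutation or treatment in the labels of either group. The early group held 8 mice, 3 at 8 days post partum (dpp) and 5 at 10 dpp. The later group held 10 mice, 5 at 12 dpp and 5 at 14 dpp. The study reported that spermatogonia made up most of the germ cells at every age. It first saw appreciable numbers of early pachytene cells at 12 dpp. The groups are therefore mixed populations that differ in age, not purified stages. The 5 mice at 16 dpp and the 5 at 18 dpp are given as levels only.

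A gene can make several transcripts by starting at different promoters, by splicing its exons in different combinations or by ending at different polyadenylation sites. Some of these encode different proteins, whereas others retain an intron or carry an early stop that exposes them to nonsense-mediated decay (NMD), the pathway that degrades such RNAs. Testis is known for an unusually rich set of transcript isoforms, and RNA-binding proteins that steer splicing and RNA stability are essential for male meiosis.

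The labels were checked against marker genes. The summed level of 10 axis, break-repair and synapsis genes ran from 463 to 673 TPM, with a median of 548, in the early mice and from 842 to 1255 TPM, with a median of 1044, in the later mice. The groups did not overlap, and 9 of the 10 genes rose at the gene level in limma's test at adjusted p under 0.05. Of all 15553 genes in that test, 26.9% rose and 21.8% fell. The 5 general germ cell markers all rose, from a median sum of 779.5 to 1312 TPM. Of 6 spermatogonium markers 0 rose and 2 fell, with median sums of 1021 TPM early and 967 TPM later and overlapping mice. Markers of somatic cells were present in both groups and moved as well. The summed level of 8 Sertoli cell markers ran from 1772 to 2085 TPM early and from 1291 to 1755 TPM later, with 5 genes falling and 1 rising. For 5 macrophage markers the ranges were 21.6 to 34.1 TPM and 37.6 to 89.3 TPM, with 4 genes rising. All 5 peritubular markers rose, from a median sum of 1122 to 1279 TPM, and 3 of 6 Leydig cell markers rose, from 195 to 274 TPM, both with overlapping mice. Of 4 endothelial markers 2 rose and 1 fell, with overlapping mice. The 5 red blood cell markers did not pass the test, and 4 of 6 spermatid markers stayed under 1 TPM in every mouse. Of the other spermatid markers, Spaca1 rose from a mean of 2.77 to 4.99 TPM (limma adjusted p = 0.000669). Tnp1, too low to be tested, reached at most 2.42 TPM. The part of these cell types in the transcript shares was not tested. In such bulk samples, fewer cells of a type and less RNA per cell cannot be told apart.

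Transcript shares differed between the groups in a small minority of the members. A transcript was called changed when its limma adjusted p, by Benjamini-Hochberg over the 26011 transcripts, was under 0.05 and its mean share differed by at least 20 percentage points. Of the tested transcripts 63 were called, or 0.242%, of which 30 rose (0.115%) and 33 fell (0.127%). They belonged to 47 genes, or 0.636% of the members. A symbol was available for 42 of these genes and 5 were NONCODE genes. In 14 genes a transcript only rose, in 17 a transcript only fell, and in 16 both were called.

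Smaller differences were more frequent. By adjusted p alone, 697 transcripts passed (2.68%), 322 rising and 375 falling, in 499 genes (6.75%). The median absolute difference was 1.85 points over all tested transcripts and 9.04 points over those that passed. A difference of 20 points or more that missed the test was seen for 196 transcripts, whose median standard error (SE) was 11.2 points against 5.37 points for the called ones. In 144 transcripts (0.554%) the 8 early and 10 later mice did not overlap at all, and 140 of these passed the test. Among the called transcripts 15 did not overlap, in 13 genes, and the other 48 did.

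**Figure D1:**
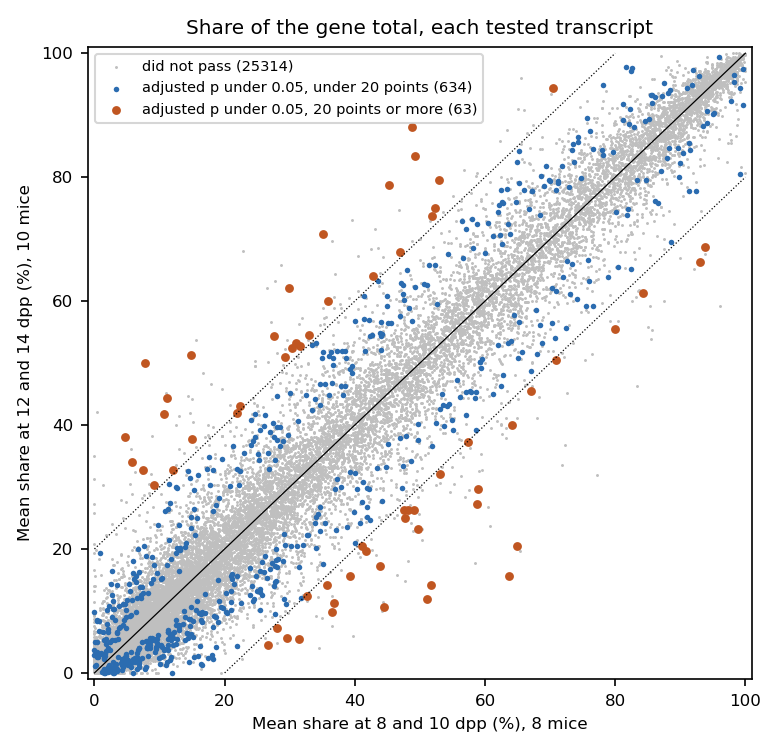
Mean share of its gene's TPM for each of the 26011 tested transcripts, in percent, in the 8 mice at 8 and 10 dpp (x axis) and the 10 mice at 12 and 14 dpp (y axis), with dotted lines 20 points from the diagonal. Most transcripts lie along the diagonal (median absolute difference 1.85 points), and the 63 called transcripts, drawn in red, lie outside the dotted lines on both sides, 30 above and 33 below.

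The leading transcript, the one with the largest mean share, differed between early and later mice in 512 members (6.93%) and in 28 of the 47 called genes. A change in share did not require a change in the gene's total. Gene totals, tested by limma on log2(TPM + 1) in all 15553 genes of at least 3 TPM in either group, passed in 7579 genes (48.7%). Of the members, 2059 rose and 1665 fell at the gene level and 3668 did not pass. Of the 47 called genes, 15 rose, 14 fell and 18 did not pass. Of the 499 genes with any transcript that passed, 206 did not pass at the gene level.

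The mice at 16 and 18 dpp did not enter the test. At 16 dpp the mean share of all 63 lay on the later side of the early mean, and at 18 dpp that of 60, with the same early mice as reference. At 18 dpp 31 of them had moved farther than the mean of 12 and 14 dpp. Within the tested ages the 63 transcripts were chosen by the difference between these same mice, which builds a step between 10 and 12 dpp into them, so their moves by age are a description. The median move in the called direction was 2.22 points from 8 to 10 dpp, 22.7 points from 10 to 12 dpp and 1.61 points from 12 to 14 dpp. Over all 26011 tested transcripts, limma with a mean for each age passed 33 from 8 to 10 dpp (2017 at an unadjusted p under 0.05), 48 from 10 to 12 dpp (2697) and 2 from 12 to 14 dpp (1609). The counts of the steps were not compared by a test.

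Among the genes with a symbol, 12 had a called transcript whose mice did not overlap between the groups, 6 by a rise and 6 by a fall. Of these 12, 11 are described. Zfp318 (ENSMUSG00000015597, chromosome 17), which encodes a nuclear zinc finger protein known to act with the androgen receptor, shifted from a long to a short coding transcript. Zfp318-204 has 8 exons, 3936 bases and a coding sequence of 3462 bases, and it ends in an exon at chr17:46420415-46420920. Zfp318-201 has 10 exons and 13060 bases with a coding sequence of 6711 bases, and it ends in an exon of 9391 bases at chr17:46410634-46420024. Both share exon 7, and the bases across the junction that follows it, 15 on each side on the plus strand of GRCm38, are shown because they are where the transcripts part. Capitals mark the side that the other transcript does not use.
Zfp318-204: aagaagcacacacagGGGCAGTTCCAGAAG
Zfp318-201: aagaagcacacacagACACTGGATCCCTAC

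The lowest, median and highest shares of Zfp318-204 were 7.65%, 13.7% and 15.4% in the early mice and 26.8%, 33.0% and 39.3% in the later mice. No early mouse came near the lowest later mouse. The difference was 20.7 points (SE 2.04, limma adjusted p = 3.57e-05), and Zfp318-201 fell by 16.7 points (SE 2.47, adjusted p = 0.00161), also without overlap. The mean share of Zfp318-204 was 11.7% in 8 dpp mice, 12.2% in 10 dpp mice, 32.6% in 12 dpp mice and 32.8% in 14 dpp mice, then 53.4% and 70.5% at 16 and 18 dpp. The gene's sum differed less, 45.5 ± 3.87 TPM (SD, n = 8) against 53.6 ± 7.22 TPM (SD, n = 10).

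Mettl3 (ENSMUSG00000022160, chromosome 14) encodes the catalytic subunit of the enzyme that writes N6-methyladenosine on RNA. Its coding transcript Mettl3-201 at chr14:52294841-52305128, minus strand, had shares of 19.5%, 33.8% and 38.6% (lowest, median, highest) in the early mice and 41.6%, 51.9% and 62.4% in the later mice. The highest early mouse stayed below the lowest later mouse. The rise was 21.3 points (SE 3.29, limma adjusted p = 0.0022), and the transcript went from 8.04 to 19.0 TPM while the gene's sum went from 25.8 to 36.0 TPM. The rise at 12 dpp alone was 17.9 points and missed the test (adjusted p = 0.0696). The largest other annotated transcript, Mettl3-206, is classed as an NMD target and lacks exon 4 of Mettl3-201, 176 bases at chr14:52298640-52298815. Its share averaged 30.2% early and 22.6% later, a difference that did not pass (adjusted p = 0.118). That fall is smaller than the rise of Mettl3-201, so other transcripts of the gene lost share as well. Both overlap Tox4 on the opposite strand, and since the strandedness of the libraries is not given, reads there could be assigned to either gene. The junction after exon 3 is shown for both because it separates the coding from the decay form, with capitals for the exon that Mettl3-206 skips.
Mettl3-201: cagcagagcaagaagGTCAGTCAGGAGATC
Mettl3-206: cagcagagcaagaagacgaattatcaataa

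Cox16 (ENSMUSG00000091803, chromosome 12), an assembly factor of the mitochondrial cytochrome c oxidase, exchanged its last exon. Cox16-206 at chr12:81472093-81485113, minus strand, held 26.9%, 36.3% and 44.5% (lowest, median, highest) of the gene early and 0%, 14.7% and 25.5% later. The groups were apart, and 1 later mouse was listed at 0. It fell by 21.6 points (SE 3.32, limma adjusted p = 0.00216). Cox16-202, whose last exon lies at chr12:81359026-81359344 and whose 3′ end is 113067 bases from that of Cox16-206, rose from 31.0% to 53.2% (22.2 points, SE 3.6, adjusted p = 0.00301), although its mice overlapped. By 18 dpp Cox16-202 averaged 71.6%. The gene's sum did not pass the test, at 48.6 ± 4.01 TPM (SD, n = 8) and 53.3 ± 7.13 TPM (SD, n = 10). These transcripts overlap the annotated gene Gm20498 on the same strand, so reads of the shared exons could be assigned to either. The junction after the shared exon 3 is shown because the coding sequences part there.
Cox16-202: gagtcagagtatgagAGGCTGTTATGTTTA
Cox16-206: gagtcagagtatgagGAAGAAGATTCCAGA

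In Asb2 (ENSMUSG00000021200, chromosome 12), a substrate-binding subunit of a cullin ubiquitin ligase, the start site changed. Only 2 transcripts were tested and they mirror each other. Asb2-204, the transcript from the downstream start, held 41.7%, 45.0% and 66.9% (lowest, median, highest) early and 17.2%, 24.1% and 39.3% later, with no overlap and with the 66.9% coming from 1 mouse at 8 dpp. It fell by 21.7 points (SE 3.54, limma adjusted p = 0.00302). In level, Asb2-204 averaged 8.41 TPM early and 7.66 TPM later, while Asb2-201 from the upstream start averaged 9.49 and 21.1 TPM. The fall at 12 dpp alone was 19.1 points and missed the test (adjusted p = 0.0871). The start sites lie 17628 bases apart and the coding sequences are 1758 and 1902 bases long. The promoter windows of RefSeq (GRCm38.p6, 250 bases before and 50 from the start, minus strand) are shown because the switch is between them, with the 50 bases from the RefSeq start in capitals, which lies 17 bases from that of Asb2-204 in the annotation and at that of Asb2-201. They are chr12:103355952-103356251 and chr12:103338341-103338640.
Asb2-201: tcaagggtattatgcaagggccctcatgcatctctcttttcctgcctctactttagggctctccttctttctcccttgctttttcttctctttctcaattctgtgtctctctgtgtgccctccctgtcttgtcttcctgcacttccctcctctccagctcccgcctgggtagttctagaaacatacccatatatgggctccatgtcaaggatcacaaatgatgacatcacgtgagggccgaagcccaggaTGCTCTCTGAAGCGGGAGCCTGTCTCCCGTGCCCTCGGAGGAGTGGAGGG
Asb2-204: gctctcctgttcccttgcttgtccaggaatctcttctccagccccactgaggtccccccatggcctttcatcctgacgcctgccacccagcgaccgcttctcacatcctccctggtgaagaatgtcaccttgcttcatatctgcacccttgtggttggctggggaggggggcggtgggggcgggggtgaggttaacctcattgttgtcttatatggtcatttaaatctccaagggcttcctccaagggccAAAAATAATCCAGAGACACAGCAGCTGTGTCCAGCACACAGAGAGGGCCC

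These windows held 6 and 5 CpG dinucleotides, against a median of 7 over 32817 RefSeq promoter windows of the same length. Searched on both strands, the E-box letters CACGTG, present in 7.15% of all windows, were in the Asb2-201 window and not in the Asb2-204 window. The letters TATAAA (13.6% of windows), TGACGTCA (1.79%) and GTTGCC (12.5%) were in neither.

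Start sites also differed in Sept9 and Rai1. Sept9 (ENSMUSG00000059248, chromosome 11) encodes a septin, a GTP-binding protein of the cytoskeleton. Sept9-205 at chr11:117232285-117362313, plus strand, held 15.9%, 22.4% and 30.5% (lowest, median, highest) early and 35.7%, 42.8% and 48.9% later, a rise of 20.8 points (SE 2.07, limma adjusted p = 3.57e-05). The groups did not overlap for it, nor for Sept9-201, which starts 33961 bases downstream and fell by 11.6 points (SE 2.16, adjusted p = 0.00671). The gene's sum was 148 TPM early and 136 TPM later, and Sept9-205 overtook Sept9-201 as its leading transcript (43.1% against 33.2% later). In Rai1 (ENSMUSG00000062115, chromosome 11), a chromatin-associated regulator named for its induction by retinoic acid, Rai1-203 at chr11:60175879-60199197 held 33.3%, 40.8% and 50.3% early and 1.15%, 21.2% and 27.6% later. It fell by 22.0 points (SE 3.48, adjusted p = 0.0026), and every later mouse lay below every early mouse. The Rai1-203 share then ranged from 20.9% to 32.4% at 16 dpp and, widely, from 0% to 48.6% at 18 dpp. No other Rai1 transcript passed the test; the nearest to a counterpart, Rai1-201, starts 70866 bases upstream with the same coding sequence and averaged 20.1% early and 30.8% later. Rai1 overlaps Srebf1 on the opposite strand.

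The other named rises were in Ptprr, Grip1 and Bdh1. In Ptprr (ENSMUSG00000020151, chromosome 10), a receptor-type tyrosine phosphatase that acts on MAP kinases, the noncoding Ptprr-205 at chr10:116018287-116114959 held 38.7%, 43.2% and 56.5% (lowest, median, highest) early and 75.8%, 77.7% and 86.3% later. This wide gap between the groups gave the lowest adjusted p of the named transcripts (33.4 points, SE 2.42, limma adjusted p = 1.7e-06), in a gene of only 5.99 TPM early and 8.79 TPM later. The coding Ptprr-204, which starts 159124 bases downstream, fell by 20.9 points (SE 3.88, adjusted p = 0.00658) with overlapping mice, and Ptprr-205 reached 96.2% at 18 dpp. Ptprr-204 starts beyond the 3′ end of Ptprr-205, so the pair shares a gene ID but no exon. Ptprr-205 overlaps 4933416C03Rik on the opposite strand. In Grip1 (ENSMUSG00000034813, chromosome 10), a PDZ scaffold protein, Grip1-212 at chr10:119453830-120087260 held 25.2%, 30.9% and 38.4% early and 39.0%, 52.2% and 64.3% later, so that the nearest mice of the groups were almost equal. It rose by 22.1 points (SE 3.19, adjusted p = 0.00142) and averaged 35.9% at 18 dpp, closer to the early than to the later mean. In Bdh1 (ENSMUSG00000046598, chromosome 16), the mitochondrial enzyme that interconverts the main ketone bodies, Bdh1-203 at chr16:31428748-31458901 held 17.9%, 22.9% and 25.4% early and 25.8%, 43.2% and 54.7% later. It rose by 20.1 points (SE 3.41, adjusted p = 0.00402), but its level was close in both groups, 8.58 and 9.25 TPM, while the gene's sum went from 39.6 to 23.3 TPM. With 12 dpp alone (15.9 points, adjusted p = 0.1) or mice 1 to 3 of each age (19.4 points, adjusted p = 0.0871) it missed the test. Bdh1-203 lies just past the 20 points of the call and overlaps Gm15743 on the opposite strand.

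The other named falls were in Abca6 and Mro. Abca6-202 (ENSMUSG00000044749, chromosome 11), a processed transcript of an ABC lipid transporter gene at chr11:110236453-110251776, minus strand, held 34.3%, 53.0% and 70.2% (lowest, median, highest) early and 0%, 9.09% and 33.7% later. The groups did not overlap, but their edges almost met. Within the early group the share of Abca6-202 was 61.6% to 70.2% at 8 dpp and already lower, 34.3% to 53.5%, at 10 dpp. It fell by 39.2 points (SE 5.95, limma adjusted p = 0.002), the coding Abca6-201 rose by as much, and with 12 dpp alone the fall missed the test (−35.5 points, adjusted p = 0.0686). The gene was near the lower limit of expression, with 7.36 TPM early and 5.94 TPM later. Mro-202 (ENSMUSG00000064036), a coding transcript of the gene for maestro, named for its male-specific expression in the developing gonad, held 29.7%, 41.5% and 46.9% early and 8.35%, 15.8% and 22.4% later. The groups were well apart, and the share fell by 23.6 points (SE 2.38, adjusted p = 4.02e-05). Mro-201, which shares its 3′ end, rose by 13.0 points (SE 1.75, adjusted p = 0.000828), also without overlap, and the gene's sum stayed close, 199.8 ± 20.9 TPM (SD, n = 8) against 195 ± 17.2 TPM (SD, n = 10).

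**Figure D2:**
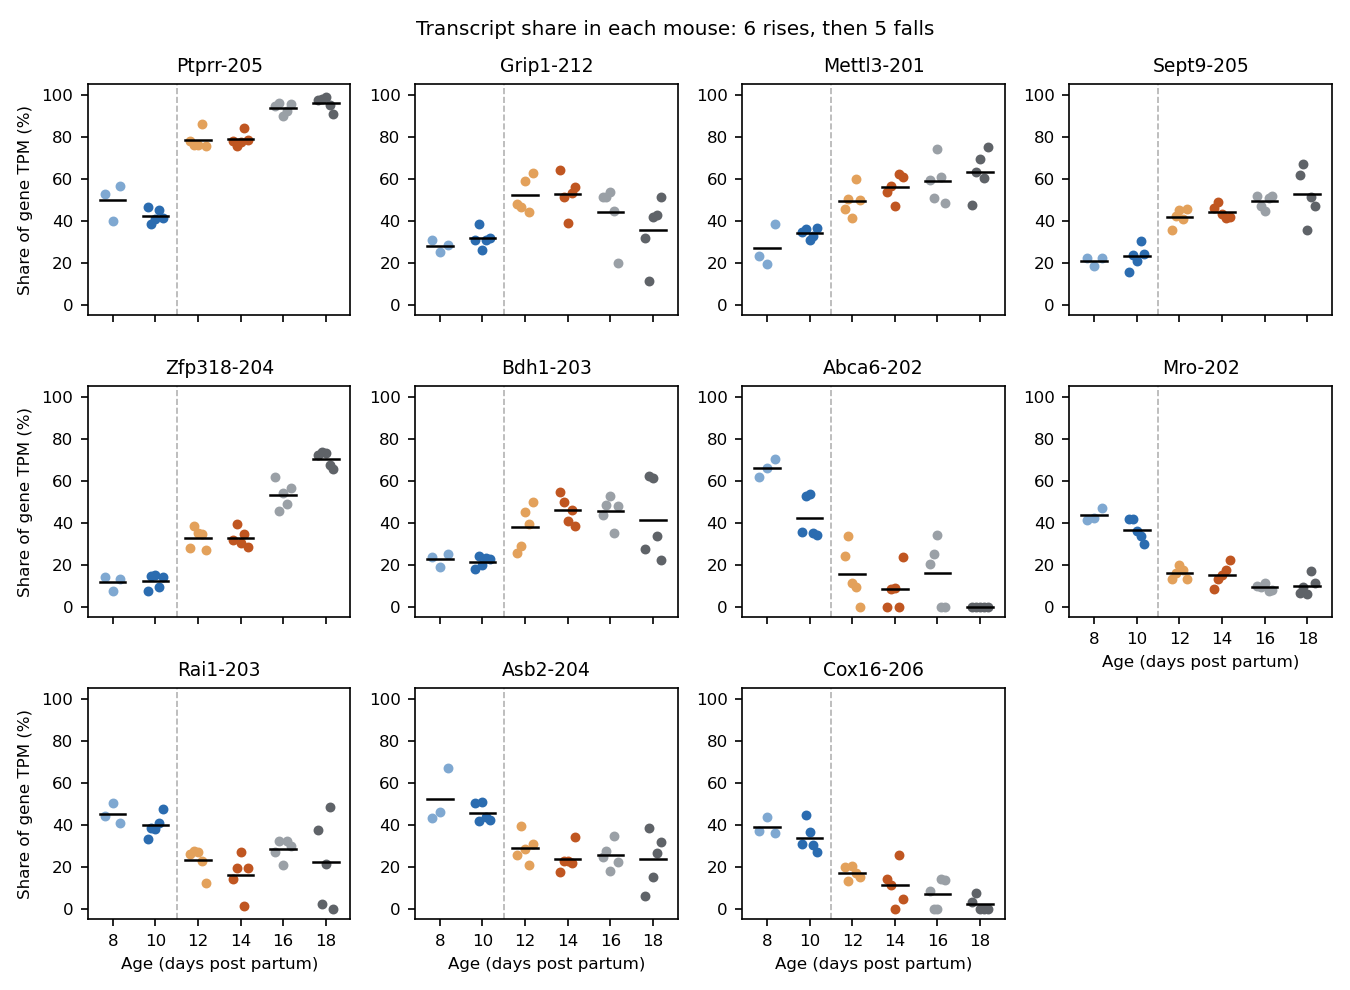
Share of its gene's TPM, in percent, of the 11 described transcripts in each mouse against age in days post partum, with bars at the mean of each age and a dashed line between 10 and 12 dpp. The early mice (blue) and the mice at 12 and 14 dpp (orange) do not overlap in any panel; Zfp318-204 goes on rising to a mean of 70.5% at 18 dpp, and Grip1-212 comes back to 35.9%.

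These 11 transcripts were chosen for mice that do not overlap, so their direction with 12 dpp alone or with 14 dpp alone was fixed in advance. The labels name no batch. The index sequences in the titles are each used once at 8, 10 and 12 dpp and recur, once each, at 14 to 18 dpp. With 12 dpp alone Mettl3-201, Bdh1-203, Abca6-202 and Asb2-204 missed the test, as given above, and the other 7 passed. Against 10 dpp alone, with 5 mice a side, only Ptprr-205 of the 11 passed.

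The remaining called genes, whose mice overlapped, were picked for mention after their values were seen. In Kalrn, a guanine nucleotide exchange factor, Kalrn-209 held 0%, 7.06% and 28.1% (lowest, median, highest) early and 26.3%, 43.8% and 53.4% later, a rise of 31.0 points (SE 4.6, limma adjusted p = 0.00164). Its gene sum also rose, from 5.24 to 18.8 TPM. Of the 29 annotated called transcripts that fell, 3 retained an intron (10.3%, against 16.6% of annotated tested transcripts). An NMD target was 1 of them (3.45%, against 6.91%). A transcript whose early share was below the minimum difference of a call could not be a called fall. Such transcripts were among those tested, so these percentages cannot show whether either type was more or less frequent among the called falls. A comparison with only the transcripts able to fall that far was not tested. In Pus3, a tRNA pseudouridine synthase, the retained-intron transcript Pus3-203 fell from 47.5% to 26.4% (SE 3.68, adjusted p = 0.00453) and the coding Pus3-201 rose from 42.8% to 64.0% (SE 3.79, adjusted p = 0.00519), with a gene sum of 13.5 and 13.7 TPM. In Cyp20a1, a cytochrome P450, the NMD transcript Cyp20a1-203 fell from 44.5% to 10.7% (SE 5.86, adjusted p = 0.00443). Retained-intron transcripts also fell in Ngrn (67.1% to 45.5%) and Zfp688 (36.5% to 9.82%). Myl4, which encodes a myosin light chain, moved the other way, since its retained-intron transcript Myl4-204 rose from 14.8% to 51.3% (SE 8.6, adjusted p = 0.0292).

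Called genes whose own level rose in the later mice included Tktl2, a transketolase-like gene (3.46 to 11.9 TPM), and Tubd1, the gene for the centriolar delta-tubulin (4.39 to 8.83 TPM). In Tktl2 the transcripts Tktl2-201 and Tktl2-202 exchanged 24.2 points (SE 5.53, limma adjusted p = 0.0243 for the fall). In Tubd1, Tubd1-202 fell by 24.6 points to 55.4% (SE 5.19, adjusted p = 0.0151) and averaged 15.3% at 18 dpp. Genes whose level fell included Homer3, a scaffold protein (34.7 to 24.0 TPM), in which Homer3-203 rose from 52.9% to 79.5% (SE 5.04, adjusted p = 0.0073) and then averaged 31.5% at 18 dpp. One called change was between genes rather than within a gene: the entry the table names Cfap43 holds Itprip-201, which GENCODE places in another gene and whose share fell from 93.0% to 66.3%.

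The pairs of transcripts that exchanged share were compared by structure in the GENCODE M21 annotation, which held 97.62% of the tested Ensembl transcripts. In each gene the transcript with the largest rise was paired with that with the largest fall. The start sites of the pair lay more than 100 bases apart in 24 of 41 annotated called genes (58.5%), against 58.2% of 6441 annotated members. Their 3′ ends lay more than 100 bases apart in 20 called genes (48.8%), against 65.3% of members. Both transcripts were coding with different coding sequences in 22 called genes (53.7%), against 50.9%, and coding with the same sequence in 7 (17.1%), against 15.9%. A coding transcript rose at the cost of a noncoding one in 9 (22%, against 17.8%) and the reverse held in 3 (7.32%, against 11.8%). These figures are a description of the called genes and no difference from the members was tested.

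By transcript type, 66% of the annotated tested transcripts were protein coding, 16.6% retained an intron, 6.91% were NMD targets and 9.79% were processed transcripts. Of 307 annotated transcripts that passed and rose, 262 were protein coding (85.3%), 10 retained an intron (3.26%) and 12 were NMD targets (3.91%). Of 354 that passed and fell, 240 were protein coding (67.8%), 54 retained an intron (15.3%) and 25 were NMD targets (7.06%). The retained-intron counts depended on the age taken. With 12 dpp alone 7 fell and 2 rose, and with 14 dpp alone 13 fell and 19 rose, so that the balance turned. Without mouse 5 at 10 dpp, whose retained-intron share was the lowest of the 18 mice, 76 fell and 8 rose. Transcripts of all types that passed numbered 91 with 12 dpp alone, 331 with 14 dpp alone and 707 without that mouse, against 697. The median spliced length was 2631 bases for transcripts that passed and rose, 2271.5 bases for those that fell and 1876 bases for all tested transcripts.

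Summed over the members, no transcript type passed the test. Retained-intron transcripts made up 3.74 ± 0.385% of the members' TPM in the early mice (SD, n = 8) and 3.76 ± 0.442% in the later mice (SD, n = 10), with p = 0.899 in a two-sided exact permutation test over the 43758 splits of the mice. Protein-coding transcripts made up 86.0 ± 0.532% and 85.8 ± 0.766% (exact permutation p = 0.486), NMD targets 2.19 ± 0.0646% and 2.18 ± 0.0702% (exact permutation p = 0.846), and processed transcripts 2.78 ± 0.107% and 2.78 ± 0.129% (exact permutation p = 0.981). Adjusted over the 4 types, every p was 0.981. Relative to the early mice, 14 dpp alone had 0.726 points less protein-coding TPM (unadjusted exact permutation p = 0.0163) and 12 dpp alone 0.271 points more (p = 0.447, same test).

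The effective number of transcripts per gene, the exponential of the Shannon entropy of the shares averaged over the members, measures how evenly a gene's output is spread. It was 2.36 ± 0.0393 in the early mice (SD, n = 8) and 2.33 ± 0.0453 in the later mice (SD, n = 10), a difference that did not pass (two-sided exact permutation p = 0.199). The outcome depended on which mice and which later age were taken. Without mouse 5 at 10 dpp, which had 2.27 against 2.35 to 2.39 in the other early mice, the later group was lower by 0.0401 (exact permutation p = 0.0384). It was lower by 0.0557 with 12 dpp alone (exact permutation p = 0.0365), by 0.0545 with mice 1 to 3 of each age (exact permutation p = 0.00866), and higher by 0.00128 with 14 dpp alone (exact permutation p = 0.963). That mouse and the 12 dpp mice numbered 1 and 2 had the lowest retained-intron shares, 2.89%, 2.96% and 3.05%, and the lowest effective numbers of the 18 mice. With these 3 libraries left out, 66 transcripts in 51 genes were called, 47 transcripts and 37 genes of which were among those above, and all 12 named transcripts were still called.

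**Figure D3:**
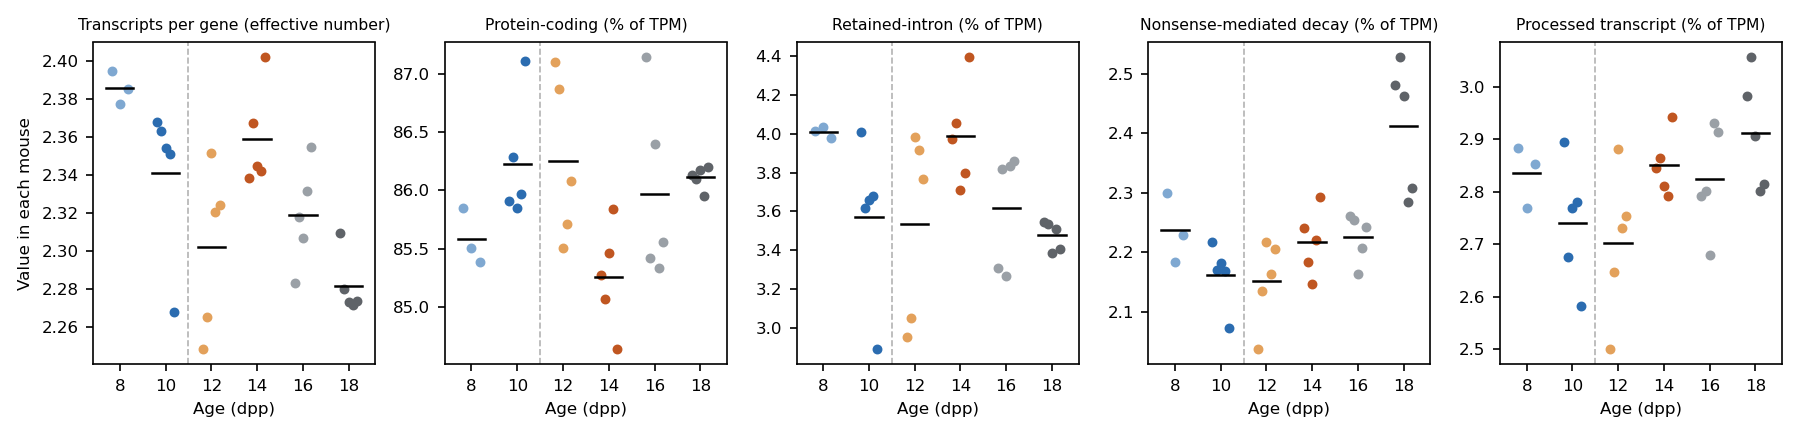
Effective number of transcripts per gene and share of the members' TPM from 4 transcript types, in percent, for each mouse against age in days post partum, with bars at the mean of each age; the y axes do not start at 0. The 10 dpp mouse 5 and the 12 dpp mice numbered 1 and 2 lie low in effective number and in retained-intron share (2.89% to 3.05%), and the other mice of both groups overlap.

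Genes were then taken by function. Splicing factor genes had 75 members with 477 tested transcripts, and 11 genes (14.7%) had a transcript that passed, against 6.75% of all members. Counted by transcript, 3.35% passed against 2.68% of all tested transcripts. No transcript of the list was called, 94 of the 477 (19.7%) had an unadjusted p under 0.05 against 15.5% of all tested transcripts, and the median absolute difference of their transcripts was 0.968 points against 1.85 points overall. Of their transcripts 7 rose and 9 fell. At the gene level 15 of the 75 genes rose and 21 fell, against 2059 and 1665 of the 7392 members. The largest exchange among them without overlap was in Srsf6, a serine- and arginine-rich splicing factor. Its NMD transcript Srsf6-201 held 41.9%, 46.7% and 48.2% (lowest, median, highest) early and 48.7%, 57.0% and 62.0% later, a rise of 10.9 points (SE 1.69, limma adjusted p = 0.0022). The groups were separate by a narrow margin. The coding Srsf6-203 fell by 11.0 points (SE 1.73, adjusted p = 0.00249), and the gene's sum was 227 TPM early and 220 TPM later. The NMD form carries an added exon of 268 bases at chr2:162932815-162933082. The pair also differs at the 3′ end, by 2095 bases, with last exons of 615 bases in Srsf6-201 and 2710 bases in Srsf6-203. Which of these differences the shares reflect was not tested.

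U2af1, the small subunit of the factor that reads the 3′ splice site, exchanged a pair of alternative exons of 67 bases each. U2af1-202, with the exon at chr17:31652502-31652568, rose from 9.64% to 16.2% (6.51 points, SE 1.33, limma adjusted p = 0.0124). U2af1-201, with the exon at chr17:31651646-31651712, fell from 90.4% to 83.8%. The mice overlapped, and the share of U2af1-202 was 23.1% at 18 dpp. The exon junctions are shown for both factors, since the alternative exon begins there, with capitals for the side that the other transcript lacks.
Srsf6-201: gctacggaagccgcaTGACCAATGGGGCTG
Srsf6-203: gctacggaagccgcagtggtggaggtggat
U2af1-202: ccaacctttagccagACCATCTTGATTCAA
U2af1-201: ccaacctttagccagACCATTGCCCTCTTG

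Other splicing factors changed by fewer points or with overlapping mice. Bud31-207 rose by 12.1 points (SE 3, limma adjusted p = 0.0361) as Bud31-201 fell by 12.6 points. Srsf2-201, the main coding transcript of that SR protein gene, fell from 91.5% to 84.4% (SE 1.46, adjusted p = 0.0132). In Srsf5 the coding Srsf5-205 fell by 5.16 points without overlap and the processed Srsf5-206 rose by 6.98 points. Luc7l2-208 fell by 7.34 points, Hnrnpk-202 by 5.66 points and the retained-intron transcripts U2af1l4-229 and Hnrnpll-207 by 6.25 and 2.86 points. Hnrnpk-214 and Srsf10-205 rose by 3.78 and 2.41 points. The count of 11 genes became 12 without mouse 5 at 10 dpp, 7 with 14 dpp alone and 1 with 12 dpp alone. The passes over all tested transcripts also changed, from 697 to 707, 331 and 91 in the same settings.

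Genes of polyadenylation and poly-A binding had 21 members, of which 5 (23.8%) had a transcript that passed, against 6.75% of all members. By transcript the shares were 6.54% and 2.68%. Pabpn1, the nuclear poly-A binding protein, changed in 3 transcripts. Pabpn1-202 held 4.03%, 7.17% and 8.38% (lowest, median, highest) early and 11.5%, 17.0% and 20.3% later, with no overlap, and rose by 9.37 points (SE 1.24, limma adjusted p = 0.000766). Pabpn1-205 rose by 4.3 points and Pabpn1-201 fell by 13.2 points (SE 2.86, adjusted p = 0.0174), in a gene whose sum fell from 489 to 357 TPM. Cpsf6-201, of a cleavage factor subunit, fell by 7.37 points without overlap (SE 1.29, adjusted p = 0.00461), and Cnot6l-210, of a deadenylase, fell by 9.64 points. Cstf3-201 and Sympk-201, of the cleavage machinery, rose by 8.76 and 6.45 points. With 14 dpp alone 4 of these genes passed, and with 12 dpp alone 1 did. In those settings 331 and 91 of all tested transcripts passed, against 697 with both ages.

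**Figure D4:**
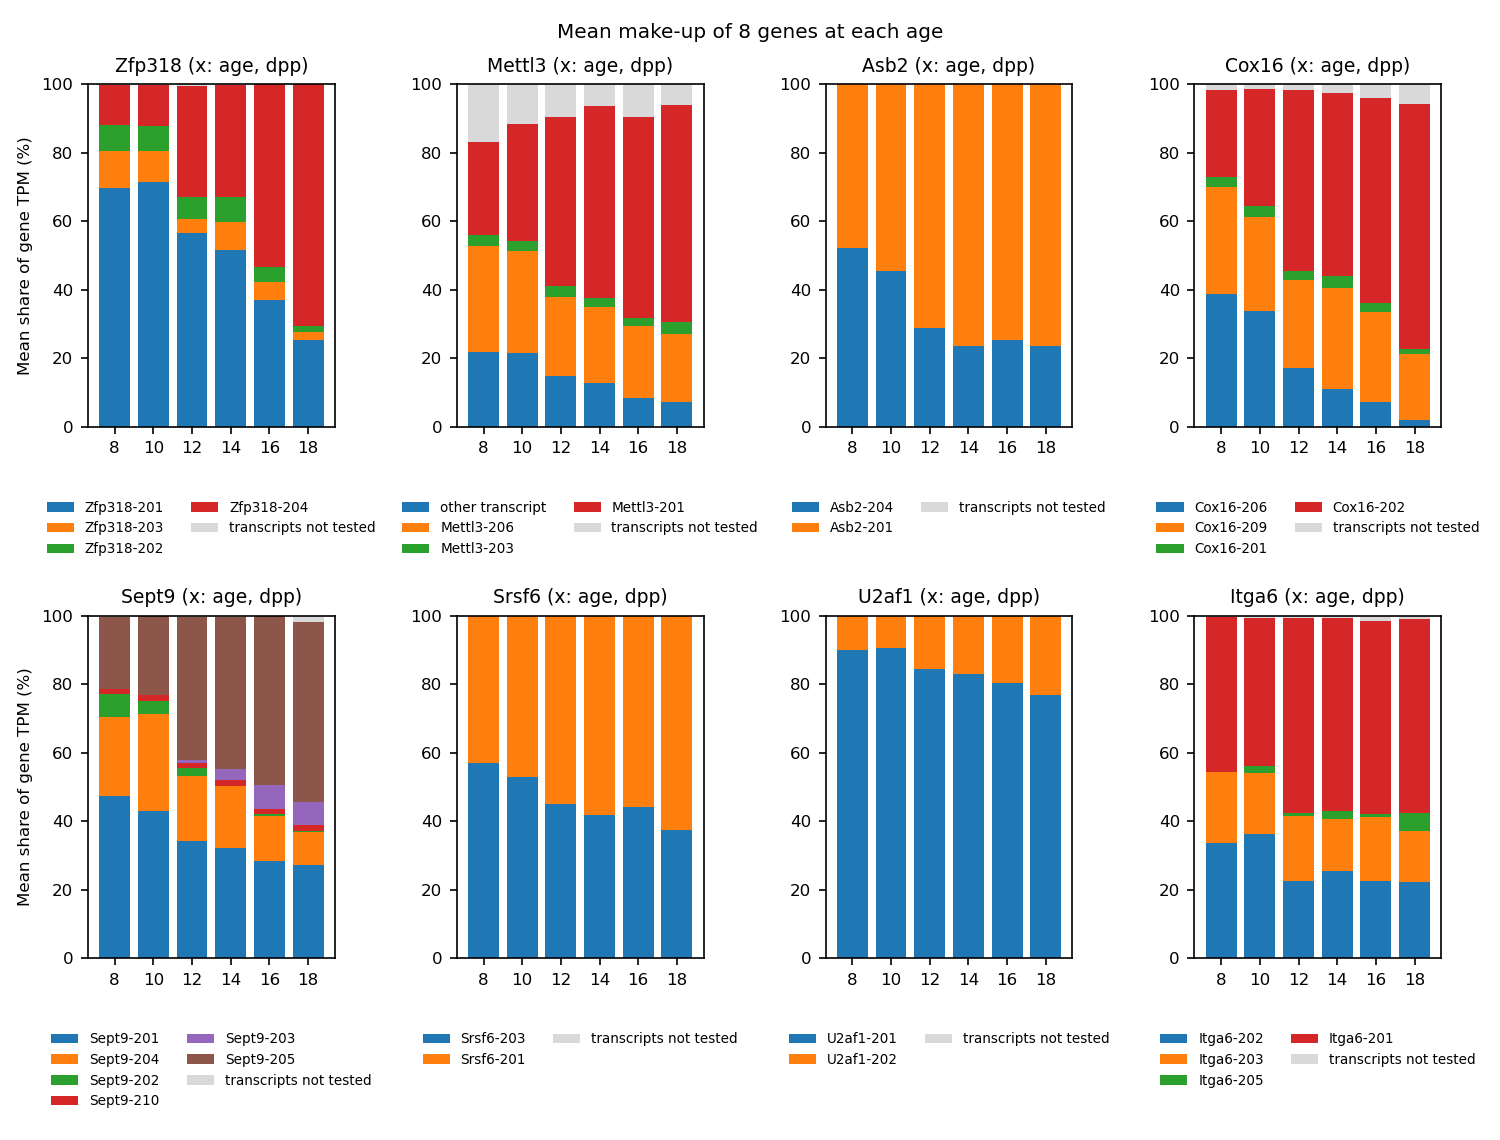
Mean make-up of 8 genes at each age from 8 to 18 dpp, as stacked shares of the gene's TPM in percent, with transcripts that were not tested in grey. The mean Sept9-205 share goes from 23.1% to 42.0% between 10 and 12 dpp, the bars of Zfp318 and Cox16 go on changing to 18 dpp, and Srsf6, U2af1 and Itga6 change by smaller steps.

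Of 36 germ cell RNA-binding regulator genes, 3 (8.33%) had a transcript that passed, against 6.75% of all members. Besides Mettl3, its partner subunit Mettl14 moved toward its leading transcript, since Mettl14-201 rose from 71.2% to 79.1% (SE 1.61, limma adjusted p = 0.0118) and Mettl14-202 fell from 21.2% to 15.2% (SE 1.55, adjusted p = 0.0458). Its gene sum was 38.8 TPM early and 38.2 TPM later. Pum2-210, of a Pumilio repressor of translation, rose by 9 points (SE 2.36, adjusted p = 0.0483). With 12 dpp alone these 3 genes missed the test, and with 14 dpp alone 2 genes of the list passed. In those settings 91 and 331 of all tested transcripts passed, against 697 with both ages. At the gene level 18 of the 36 genes rose and 5 fell, against 2059 and 1665 of the 7392 members.

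Many genes of meiotic chromosome structure and recombination rose in level, and the share of them with a transcript that passed was close to the 6.75% of all members. At the gene level, 2059 of the 7392 members rose and 1665 fell. Of 15 synapsis, cohesin and axis genes, 10 rose and 1 fell at the gene level, and 1 (6.67%) had a transcript that passed. This was Sun1, which anchors telomeres to the nuclear envelope: Sun1-201 fell from 54.1% to 43.1% (SE 2.31, limma adjusted p = 0.015) as the gene's sum rose from 81.7 to 104 TPM. Of 33 double-strand break and recombination genes, 18 rose and 1 fell in level, and 2 (6.06%) had a transcript that passed. Spo11-204, a retained-intron transcript of the gene that makes the meiotic breaks, fell from 26.9% to 16.7% (SE 2.56, adjusted p = 0.0397) while the gene's sum rose from 4.28 to 14.2 TPM. Rad54b-202, of a recombination ATPase gene, fell from 27.6% to 14.0% (SE 2.56, adjusted p = 0.00703). With 12 dpp alone these 3 genes missed the test, as they did with 14 dpp alone. Passes over all tested transcripts were also fewer there, 91 and 331 against 697 with both ages.

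Of 59 chromatin enzyme and reader genes, 4 (6.78%) had a transcript that passed, as did 6.75% of all members. In Brd3, a bromodomain protein that binds acetylated histones, Brd3-202 held 27.8%, 44.2% and 49.1% (lowest, median, highest) early and 50.3%, 56.2% and 63.5% later, a rise of 14.7 points without overlap (SE 2.71, limma adjusted p = 0.00636). Brd3-203 fell by 15.1 points (SE 2.7, adjusted p = 0.00518); it holds an extra exon of 51 bases at chr2:27453400-27453450 and was back at 17.4% at 18 dpp. The fall of Dnmt3a-218, of a de novo DNA methyltransferase gene, was 10.7 points (SE 2.02, adjusted p = 0.00704), that of Cbx5-201, of a heterochromatin protein gene, 7.95 points, and Scml2-201 rose as Scml2-203 fell by 6.03 points. With 12 dpp alone these 4 genes missed the test, and with 14 dpp alone 1 gene of the list passed. Passes over all tested transcripts were also fewer there, 91 and 331 against 697 with both ages.

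Of 14 spermatogonial genes only Itga6 passed (7.14%, against 6.75%). It encodes integrin alpha 6, a surface protein of spermatogonia. Itga6-201, which includes an exon of 130 bases at chr2:71853534-71853663, held 34.9%, 44.6% and 50.5% (lowest, median, highest) early and 52.7%, 55.3% and 63.3% later. It rose by 12.6 points without overlap (SE 2.09, limma adjusted p = 0.00339), and Itga6-202 fell by 11.2 points (SE 2.11, adjusted p = 0.00704), while the gene's sum fell from 109 to 74.99 TPM. The junctions of Itga6 and Brd3 are shown because each pair differs there by 1 included exon, in capitals.
Itga6-201: tttttactgtggaagTGTGGCTTCTTCAAG
Itga6-202: tttttactgtggaagtgtggattctttaag
Brd3-203: gagctgcaggagcagACTGGCTGCGGAGCC
Brd3-202: gagctgcaggagcagctgaaggccgtgcac

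Of 37 cell cycle genes, 1 (2.7%, against 6.75%) passed. Rbl1, a pocket protein of the retinoblastoma family, lost share of its retained-intron transcript Rbl1-202, from 42.3% to 24.6% (−17.7 points, SE 3.15, limma adjusted p = 0.00498), and gained share of the coding Rbl1-201, from 56.5% to 73.0% (SE 3.02, adjusted p = 0.00623). Of 36 transcription factor genes of spermatocytes limma passed 0, with 19 of their 129 transcripts (14.7%) at an unadjusted p under 0.05, against 15.5% of all tested transcripts.

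Of 13 genes that the study follows by name in these stages, 7 had transcripts to compare, and limma passed 0 of their 18 transcripts, with 2 at an unadjusted p under 0.05, against 15.5% of all tested transcripts. The largest difference in Sycp3, a protein of the chromosome axis, was 1.69 points (lowest adjusted p = 0.536), although the gene's sum rose from 132 to 297 TPM (log2 difference of TPM + 1 of 1.15, SE 0.0903, adjusted p = 2.72e-09). In Mybl1, a transcription factor of pachytene, it was 9.42 points (adjusted p = 0.125) as the sum went from 12.3 to 21.7 TPM. In Stra8, which meiotic entry requires, it was 2.32 points (adjusted p = 0.36). For E2f1, Zfp143, Zbtb33 and Tbpl1 it was between 1.61 and 7.01 points. Of the 8 Sertoli cell markers, 3 had transcripts to compare and 2 of these had one that passed, where 6.75% of all members did: Wt1-204 rose from 37.9% to 46.2% (SE 1.96, limma adjusted p = 0.0279) and Gata4-204 from 9.08% to 17.5% (SE 1.58, adjusted p = 0.00703). Both genes fell at the gene level, Wt1 from 372 to 238 TPM and Gata4 from 228 to 137 TPM.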

How the data were processed

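The table holds 28 C57BL/6J mice, of which 18 entered the tests; further 8 dpp mice that the study describes are not analysed here. The deposited table holds TPM per transcript and mouse, rounded to 2 decimals, which the authors estimated with RSEM 1.2.8 from paired-end reads aligned by Bowtie 1.0.0 to a joint transcriptome (mm10) of Ensembl release 75, NONCODE v4 and piRNA precursors; strandedness is not given in the sources used here. Each column of TPM summed to between 999998.1 and 1000003.2. No counts were used, so the depth behind each share is unknown and an exact 0 may be a failed estimate; between 60670 and 66316 transcripts were above 0 per mouse. RSEM divides reads that several transcripts share by a model, and the files hold no junction reads.

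Shares were formed within the table's gene ID and fitted by limma 3.58.1 (R 4.3.3) with a variance trend, as later minus early, without covariates. The study states no test of isoform use. Scripts were tested on simulated data. Named genes were those with a symbol, a called transcript and no overlap of mice (up to 12 rises and 12 falls, giving 6 of each, 1 of which is not reported here), up to 4 called genes per list, and the genes the study follows; other called genes, and listed genes whose differences were under 20 points, were chosen after their values were seen. The members and lists were chosen with earlier results of these data known. Per-mouse measures were compared by two-sided exact permutation tests, whose smallest possible p was 2.29e-05. Annotation and sequences came from GENCODE M21 and RefSeq (GRCm38.p6), which shares mm10 coordinates; 24266 of 24858 tested Ensembl transcripts matched. Mice sharing a number did not deviate together (24 pairs, r from -0.0339 to 0.0458), so the numbers were not used as pairs; 4 of 18 mice correlated best with their own number. The 14 dpp mice titled 6 and 7 are mice 4 and 5 by their descriptions. No libraries were identical, and median correlations with mice of the same age were 0.909 to 0.923 for shares. The authors' gene-level TPM table, the purified cell table and the column of assigned substages were not used. Alternatives covered the scale, pseudocount, filters, variance prior, ages, mice and block.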

Additional observations from a re-analysis of the deposited data

Results flagged for a closer look

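Of 34 groups of early or later mice tested for a single mouse far from the rest, 3 were flagged by Dixon's criterion, which flags about 1 in 20 groups by chance. Mouse 5 at 10 dpp had an effective number of transcripts per gene of 2.27, where the other early mice lay between 2.35 and 2.39. The same mouse had a retained-intron share of 2.89% of the members' TPM, where the other early mice lay between 3.62% and 4.04%. Mouse 3 at 8 dpp had an Asb2-204 share of 66.9%, where the other early mice lay between 41.7% and 50.6%; without it the fall of Asb2-204 was 19.1 points and still passed limma's test.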

How the results depend on the processing

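The 12 named transcripts kept their direction in all 415 alternative values. They were chosen because their mice do not overlap, which fixes the direction for any subset of these mice, so the kept direction is no support. Of the 415 values, 400 stayed on the same side of the test. The 15 that missed it came from comparing 12 dpp with 10 dpp alone, 12 dpp with 8 and 10 dpp, or mice 1 to 3 only. The numbers of called transcripts and genes, 63 and 47, became 4 and 3 for 12 dpp against 10 dpp, 14 and 13 for 12 dpp against 8 and 10 dpp, and 38 and 29 with mice 1 to 3 of each age, settings with fewer mice. For 14 dpp against 8 and 10 dpp they were 61 and 45, of which only 29 transcripts and 25 genes were among those above. With mice 1 to 3 of each age, 21 transcripts and 18 genes were among those above, and with no filter on low values 34 and 25. The numbers called became 33 and 24 for genes of at least 10 TPM, 181 and 129 with no filter on low values, and 43 and 29 for transcripts of at least 5 TPM. With a minimum difference of 10 points they were 303 and 213, with 30 points 16 and 12, and with no minimum 697 and 499. With the replicate number as a block they were 39 and 29, of which 37 transcripts and 28 genes were among those above, and all 12 named transcripts still passed the test under the block, but Bdh1-203, at 19.7 points, dropped below the minimum difference. Leaving out each mouse in turn gave 47 to 68 transcripts and 34 to 50 genes, and 3517 to 3788 member genes past the test at the gene level.

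Retained-intron transcripts that fell and rose, 54 and 10, became 7 and 2 with 12 dpp alone, 13 and 19 with 14 dpp alone, 25 and 9 with the replicate block, and 76 and 8 without mouse 5 at 10 dpp, all chosen after seeing the data. With the block, 5 splicing factor genes and 2 polyadenylation genes had a transcript that passed, against 11 and 5. Over all tested transcripts 415 passed with the block, against 697 without it. The total was 91 with 12 dpp alone, 331 with 14 dpp alone and 707 without mouse 5 at 10 dpp.

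The effective number, later minus early, was -0.0272 and ranged from -0.0401 to -0.0181 when each mouse was left out; it was -0.0557 with 12 dpp alone, 0.00128 with 14 dpp alone and -0.0545 with mice 1 to 3. The type shares turned direction under several settings. In percentage points, the differences with 12 dpp alone were 0.271 for protein-coding, -0.2004 for retained-intron and -0.0729 for processed transcripts. With 14 dpp alone they were -0.726 for protein-coding and 0.0265 for NMD transcripts. With mice 1 to 3 they were 0.0831 for protein-coding, -0.264 for retained-intron and -0.0489 for processed transcripts. As means of the genes' percentages they were 0.437 for protein-coding, -0.222 for retained-intron, -0.0663 for NMD (unadjusted exact permutation p = 0.041) and -0.131 for processed transcripts (unadjusted exact permutation p = 0.0113). For genes of at least 10 TPM the processed transcripts differed by -0.00146. Without each mouse in turn the ranges were -0.377 to -0.0671 for protein-coding, -0.0954 to 0.114 for retained-intron, -0.0233 to 0.0101 for NMD and -0.0264 to 0.0322 for processed transcripts. The cause of these changes was not tested.

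TPM without counts give no counting error, so the share of a gene near 3 TPM is known only through the spread between mice. Somatic marker levels moved between the groups as well, and their part in the shares was not tested.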
